A study of Drosophila melanogaster with 2 samples.

Results

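The nuclear genes for subunits of the oxidative phosphorylation machinery were examined for promoter binding by the CG14014 product in Drosophila melanogaster embryos. Members were the protein-coding genes of the 7 chromosome arms whose symbol starts with ND-, UQCR-, ATPsyn, COX followed by a digit from 4 to 8, or SdhA to SdhD. The rule gave 87 of 13968 protein-coding genes and used no measured value, though it was chosen with earlier results of these data known. By respiratory complex, 40 belonged to complex I, 7 to complex II, 9 to complex III, 16 to complex IV and 15 to complex V. Of the 87, 24 carried the suffix L, L1 or L2 of a like-named copy of a subunit gene, and 63 did not.

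Chromatin immunoprecipitation with sequencing (ChIP-seq), which maps where a protein sits on DNA, was performed with an anti-GFP antibody on whole embryos of the CG14014-GFP strain, aged 0 to 24 h. The strain expresses a fusion of CG14014 to enhanced GFP (eGFP). All samples formed 1 group of 2 biological replicates, so no conditions were compared. An embryo of this age range holds many tissues, so a peak can come from any subset of its cells. Which cells and stages bore the binding cannot be told apart.

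Oxidative phosphorylation is the chain of inner mitochondrial membrane complexes that turns electrons from food into ATP. Complex I takes electrons from NADH and complex II takes them from succinate. Both pass them to ubiquinone, complex III hands them to cytochrome c, and complex IV reduces oxygen with them. Complexes I, III and IV pump protons, and complex V, the ATP synthase, uses the return of the protons to make ATP. Most subunits are encoded in the nucleus, and a few core subunits of every complex but complex II are encoded by mitochondrial DNA. Many Drosophila subunit genes have a retroposed or duplicated copy, and such copies are often expressed in the testis.

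The sequences at 6 of the binding summits are shown first, as examples of what was bound. A summit is the base that the authors' files mark as the highest point of a peak. ND-ASHI, ND-51, COX5A and ATPsynCF6 were taken in order of signal from the members with a summit outside exons, and ND-MWFE is not shown. ND-SGDH and ND-42 were added after their values were seen, because they hold a word found at few other summits. Each line gives up to 50 bases to each side of the summit, 5′ to 3′ on the strand of the subunit gene, from release 6 of the RefSeq genome. Capitals mark any of 10 short words searched on both strands.
ND-ASHI, X:6679324-6679424, minus strand: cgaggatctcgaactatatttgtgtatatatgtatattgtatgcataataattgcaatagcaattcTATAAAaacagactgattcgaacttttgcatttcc
ND-51, 2L:6062835-6062935, minus strand: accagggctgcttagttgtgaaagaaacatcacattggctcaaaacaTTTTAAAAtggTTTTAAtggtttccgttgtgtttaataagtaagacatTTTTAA
COX5A, 3R:11819452-11819547, plus strand: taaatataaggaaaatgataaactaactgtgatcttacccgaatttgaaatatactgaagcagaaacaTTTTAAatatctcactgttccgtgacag
ATPsynCF6, 3R:23356111-23356211, minus strand: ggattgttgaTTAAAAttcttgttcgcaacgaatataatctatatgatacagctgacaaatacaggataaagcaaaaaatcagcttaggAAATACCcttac
ND-SGDH, 3L:12138585-12138685, minus strand: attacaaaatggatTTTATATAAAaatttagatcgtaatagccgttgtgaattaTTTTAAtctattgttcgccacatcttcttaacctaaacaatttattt
ND-42, 3R:22027507-22027607, plus strand: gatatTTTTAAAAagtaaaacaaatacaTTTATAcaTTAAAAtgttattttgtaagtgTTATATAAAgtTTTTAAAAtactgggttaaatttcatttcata
The capitals are TATAAA at ND-ASHI and the A/T-rich word TTAAAA, or its complement TTTTAA, at each of the others. ATPsynCF6 also holds GGTATTT, printed as its complement AAATACC. ND-SGDH and ND-42 also hold TTATATAA, which overlaps TATAAA. A separate TTTATA, the complement of TATAAA, stands upstream of it at ND-42.

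Promoter summits were few among these genes, near the level of all genes. A gene was counted when a peak summit lay within 500 bp of any of its transcription start sites. In the conservative list, 3216 peaks found reproducible between the replicates, 11 of the 87 genes had a promoter summit, a share of 12.6% with a 95% Wilson interval of 7.21% to 21.2%. Of all protein-coding genes, 14.6% had one. In the longer optimal list of 5675 peaks, 18 members had a promoter summit (20.7%, interval 13.5% to 30.4%) against 21.9% of all genes. The list of replicate 1 alone, with 4617 peaks, gave 15 members (17.2%) against 18.6% of all genes. The list of replicate 2 alone, with 2737 peaks, gave 11 members (12.6%) against 13.2%. In these 4 thresholded lists, all with a global irreproducible discovery rate (IDR) of 0.01 or less, the share of all genes lay within the members' interval. The global IDR estimates the share of irreproducible peaks among a peak and all those ranked above it.

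The ranked lists hold peaks before the threshold, most of them weak. There 70 members (80.5%) had a summit in the ranking of the true replicates against 69.3% of all genes, and 78 (89.7%) in the ranking of the pooled reads against 79.9%. In the ranking of replicate 1 the count was 71 (81.6%) against 70.2% of all genes, and in that of replicate 2 it was 52 (59.8%) against 64.1%. The members' Wilson intervals, 70.9% to 87.4%, 81.5% to 94.5% and 72.2% to 88.4%, lay above the share of all genes in the first 3 rankings. In that of replicate 2 the interval, 49.3% to 69.4%, included it.

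The like-named copies carried none of the thresholded summits. None of the 24 copies had a promoter summit in the conservative, the optimal or either replicate's thresholded list, which allows a share of up to 12.5% by 3 counts over the number of genes, or 13.8% as the upper Wilson limit. Of all protein-coding genes, 14.6% had one in the conservative list and 21.9% in the optimal list. In the lists of replicates 1 and 2 the shares of all genes were 18.6% and 13.2%, the latter within the copies' Wilson limit. Of the 63 other genes, 11 had one in the conservative list (17.5%, interval 10% to 28.6%) and 18 in the optimal list (28.6%, interval 18.9% to 40.7%). In the ranking of the true replicates, 57 of the 63 (90.5%) and 13 of the 24 copies (54.2%) had a summit, against 69.3% of all genes. The highest signal at a copy there was 40.1, at ATPsynepsilonL. The copies were split off by symbol, and the difference was not tested.

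**Figure D1:**
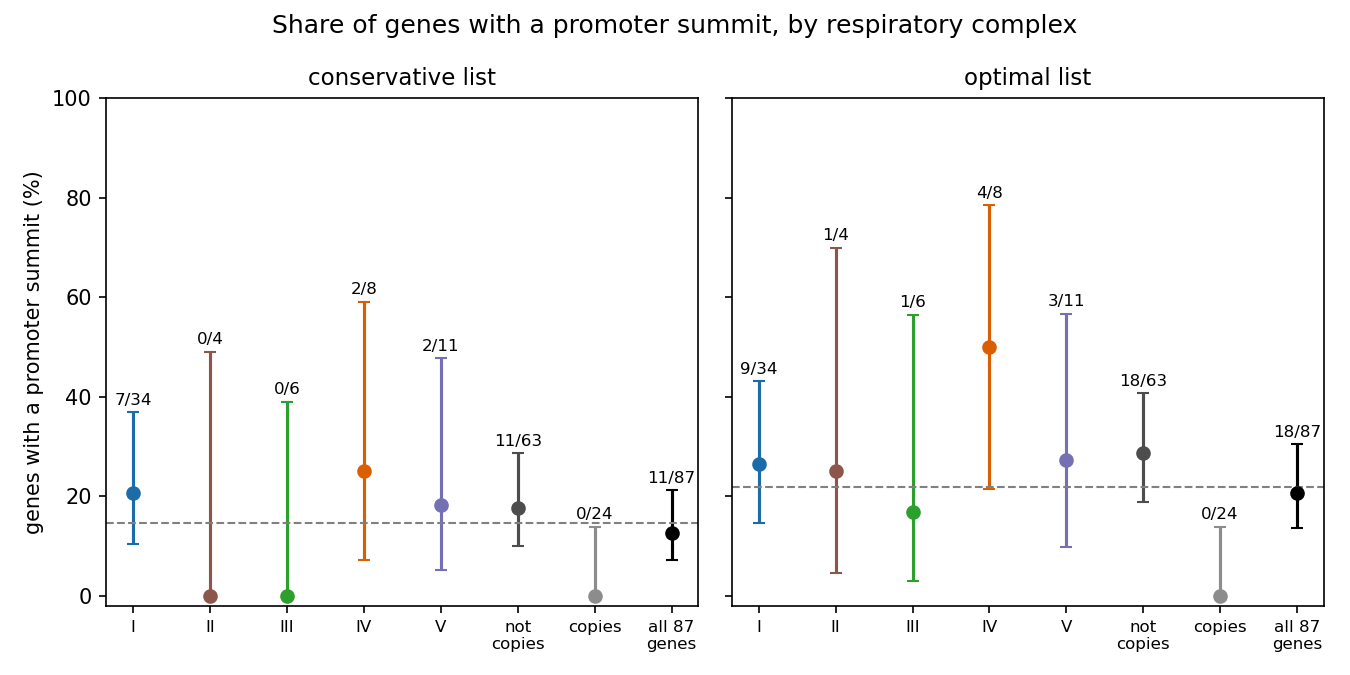
Share of genes with a promoter summit (y axis, percent) for each respiratory complex without its copies, for all 63 genes that are not copies, for the 24 copies and for all 87 genes, in the conservative list (left) and the optimal list (right). Points are shares with 95% Wilson intervals, numbers are genes with a summit over genes, and the dashed line is the share of all protein-coding genes (14.6% and 21.9%), which crosses every interval except those of the copies.

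By complex, the conservative summits fell at complexes I, IV and V. Complex I, the NADH dehydrogenase, had 7 of 40 genes (17.5%, interval 8.75% to 31.9%). Complex IV, cytochrome c oxidase, had 2 of 16 (12.5%), and complex V had 2 of 15 (13.3%). Of all protein-coding genes, 14.6% had a conservative promoter summit. Without the copies, the counts were 7 of 34 for complex I (20.6%), 2 of 8 for complex IV (25.0%) and 2 of 11 for complex V (18.2%). None of the 7 genes of complex II and none of the 9 of complex III had one, which allows shares of up to 42.9% and 33.3% by 3 counts over the number of genes, or 35.4% and 29.9% as upper Wilson limits. The Wilson intervals of all 5 complexes overlapped. In the optimal list complex I had 9 genes (22.5%), complex II 1 (14.3%), complex III 1 (11.1%), complex IV 4 (25.0%) and complex V 3 (20.0%). Of all genes, 21.9% had a promoter summit in that list, a share within the Wilson interval of each complex. Within complex I, 2 of the 7 nuclear core subunits, which pass the electrons along or bind ubiquinone, had a conservative summit. Of the 27 accessory subunits that are not copies, 5 did (18.5%).

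The core subunits of complex I with a summit were ND-51 and ND-24, neighbours in the module that takes up electrons from NADH. ND-51 (FBgn0031771), which binds NADH and flavin, had a signal of 74.3 in replicate 1 and 95.6 in replicate 2, and 171 in the conservative list (rank 1039). Signal is the authors' value per peak, on a scale that neither labels nor files state, and at these genes the value of the series list was 94.5% to 109% of the replicates' sum. The peak at 2L:6062720-6063049 lay between ND-51 and CG13994, with its summit 128 bp upstream of the former and 104 bp upstream of the latter. ND-24 (FBgn0030853), an iron-sulphur subunit, had 83.8 in replicate 1, 61.0 in replicate 2 and 144 in the conservative list (rank 1372). Its peak, X:17631992-17632321, had its summit in the 5′ UTR of ND-24, 68 bp downstream of the nearest start site and 110 bp upstream of corolla, a gene of the synaptonemal complex. The other core subunits, ND-75, ND-49, ND-30, ND-23 and ND-20, had no promoter summit in a thresholded list. Their highest signal in the ranking of the true replicates was 37.9, at ND-23, and ND-49 had none there.

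The accessory subunits of complex I, which surround the core and in mammals serve assembly and stability, held the highest signals of the 87 genes. ND-ASHI (FBgn0029888) had 239 in replicate 1 and 240 in replicate 2, and 474 in the conservative list, rank 181 of 3216. The replicates thus gave nearly the same value at this gene, which was the only member among the 300 peaks with the highest signal. Its peak, X:6679259-6679501, lay in an intron of Fum1, which encodes fumarase of the citric acid cycle. The summit was 256 bp upstream of the nearest ND-ASHI start site and 266 bp upstream of the nearest start site of Fum1, each gene having further start sites.

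ND-MWFE (FBgn0085468) followed with 93.0 in replicate 1 and 153 in replicate 2, and 248 in the conservative list (rank 605). Its summit, in the peak 2R:13158394-13158550, was 192 bp upstream of ND-MWFE but only 29 bp upstream of a start site of TppII, a peptidase gene, and lay in an intron of TppII. The remaining accessory subunits with a conservative summit had signals below the median of 145 over all genes with a summit. ND-SGDH (FBgn0011455) had 106 in the conservative list, with 32.8 in replicate 1 and 68.3 in replicate 2. Its peak, 3L:12138470-12138799, had its summit 51 bp upstream of ND-SGDH and 233 bp upstream of RhoGAP68F. In replicate 1 this peak stood only in the ranking, at a global IDR of 0.139.

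ND-42 (FBgn0019957) had 97.1 in the conservative list, with 46.6 in replicate 1 and 42.3 in replicate 2. The value of replicate 1 came from its ranking, at a global IDR of 0.0103, just outside the threshold. The peak, 3R:22027392-22027721, lay between ND-42 and Cchl, the enzyme that attaches heme to cytochrome c, with the summit 152 bp upstream of the former and 77 bp upstream of the latter. ND-B17 (FBgn0001989) had the lowest conservative signal of the 11 genes, 87.9, with 60.6 in replicate 1 and 29.6 in replicate 2, the latter only in the ranking at a global IDR of 0.0227. Its peak, 2L:15751014-15751343, was the only member peak whose summit lay within 500 bp of no other gene, 101 bp upstream of ND-B17. For these 3 accessory subunits, 1 replicate alone did not pass the threshold.

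Complex IV was represented by COX5A and COX6B, subunits that surround its mitochondrially encoded core. COX5A (FBgn0019624) had 73.8 in replicate 1, 62.5 in replicate 2 and 136 in the conservative list (rank 1482). The summit of its peak, 3R:11819337-11819666, lay in an intron of COX5A, 97 bp upstream of a COX5A start site and 82 bp upstream of a start site of glo, which encodes an RNA-binding protein. COX6B (FBgn0031066) had 48.2, 50.4 and 96.5 (rank 2260) in the same order. Its peak, X:19744244-19744573, had the summit 74 bp upstream of COX6B and 22 bp upstream of CG33932 and Rpp20. The gene CG18809 is annotated with the same start site as COX6B, so 1 start site serves both annotations.

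Complex V was represented by 2 subunits outside its catalytic head. ATPsynE (FBgn0038224), the membrane subunit e, had 62.1 in replicate 1, 61.7 in replicate 2 and 117 in the conservative list (rank 1769). Its peak, 3R:14326797-14327126, had its summit in the 5′ UTR of ATPsynE, 15 bp downstream of the start site and 273 bp upstream of Afti. ATPsynCF6 (FBgn0016119), coupling factor 6 of the peripheral stalk, had 52.4, 49.0 and 107 (rank 1978). Its peak, 3R:23355996-23356325, lay between ATPsynCF6 and Sec13, a gene of vesicle coats and the nuclear pore, with its summit 97 bp upstream of the former and 117 bp upstream of the latter.

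**Figure D2:**
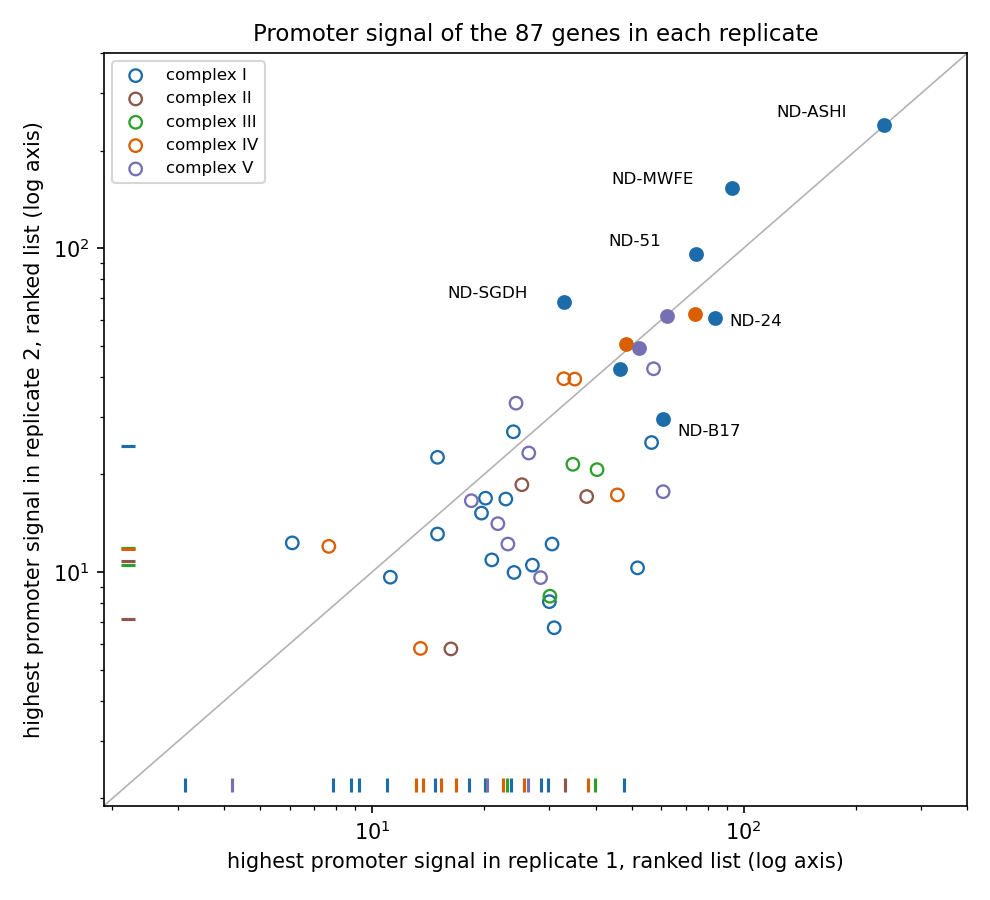
Highest promoter signal of each gene in the ranking of replicate 1 (x axis, log scale) against that of replicate 2 (y axis, log scale), in the authors' units. Filled points are the 11 genes with a conservative promoter summit, open points the other genes with a summit in both rankings, ticks along an axis the genes with a summit in 1 ranking, and the grey line marks equal values. The 11 genes lie at the upper right, with ND-ASHI at 239 and 240, while most open points lie below the line.

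Across the 11 genes the median conservative signal was 117, against 145 over all genes with a promoter summit, whose highest value was 2570. Of the 11, 3 exceeded that median, and the median rank was 1769. The ratio of replicate 1 to replicate 2 ran from 0.480 at ND-SGDH to 2.05 at ND-B17, with a median of 1.01, and 6 genes were higher in replicate 1. Over the 46 members with a summit in both rankings, 34 were higher in replicate 1 (73.9%), and the median signals were 30.3 in replicate 1 and 17.5 in replicate 2. Over the 7070 genes of the same kind, 64.0% were higher in replicate 1, with medians of 29.1 and 20.6. Log2 signals of the replicates had a Pearson correlation of 0.724 across the 46 members and 0.763 across the 7070 genes, which are not independent replicates. Read depth is not given in the files, so its part in the difference between replicates was not tested.

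The replicates' own thresholded lists gave 17 members between them. Of these, 9 were in both lists, 6 only in that of replicate 1 and 2 only in that of replicate 2. As a share of each list, 60.0% of the members of replicate 1 were also in replicate 2, and 81.8% of those of replicate 2 were also in replicate 1. Over all genes the shares were 58.8% and 83.0%. Peaks of the replicates overlapped by at least 1 bp at 8 of the 9 genes. The exception was ATPsynbeta, where the summits stood 789 bp apart.

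Most of the 11 summits lay upstream of the start site and close to a second gene. Of the 11, 9 were upstream and 2 downstream, with a median position of −97.0 bp from the start of the subunit gene. Over all genes with a promoter summit, 88.2% of summits were upstream and the median position was −131 bp. At 10 of the 11 genes the same summit also lay within 500 bp of another protein-coding gene, while this held for 58.2% of all genes with a summit. The subunit gene was the nearest gene at 6 of the 11, namely ND-ASHI, ND-24, ND-SGDH, ND-B17, ATPsynE and ATPsynCF6. At ND-MWFE, ND-51, ND-42, COX5A and COX6B another gene was nearer. The summits of both replicates' own lists turned this order at a pair of genes. Fum1 was nearer than ND-ASHI, at 258 against 264 bp in replicate 1 and 260 against 262 bp in replicate 2. ND-51 was nearer than CG13994, at 94 against 138 bp and 102 against 130 bp. In replicate 2 alone, the start site shared by COX6B and CG18809 was the nearest to the summit at COX6B, 43 bp away. Counting each summit only for its nearest gene left 6 members (6.90%) against 10.7% of all genes.

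**Figure D3:**
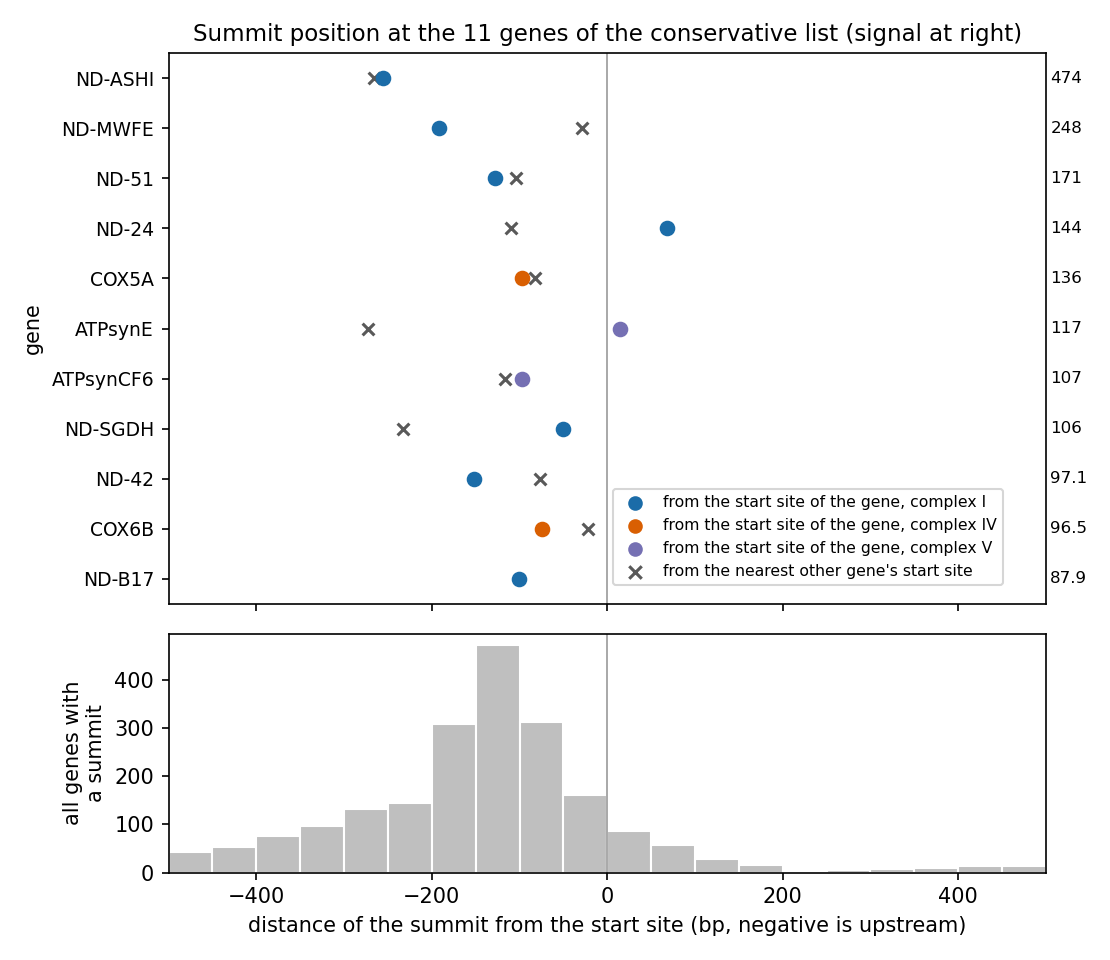
Position of the conservative summit at each of the 11 genes (upper panel, bp from the start site, negative is upstream), as dots from the start site of the subunit gene and crosses from that of the nearest other gene, with the signal at the right, and (lower panel) the number of all genes with a summit per 50 bp. Dots at 9 of the 11 genes lie upstream, all 10 crosses lie upstream of the other gene, and ND-B17 has no cross.

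Members with a summit were mostly head-to-head genes. A gene was called head-to-head when a start site of another protein-coding gene on the opposite strand lay within 500 bp upstream of one of its own. This held for 10 of the 11 members with a conservative summit (90.9%) and for 26 of the 52 others that are not copies (50%). Of all protein-coding genes it held for 55.3% of those with a conservative summit and 22.5% of those without. Read the other way, 10 of the 39 head-to-head members had a summit (25.6%, interval 14.6% to 41.1%), against 29.6% of all 3815 head-to-head genes. Of the 48 members with no head-to-head neighbour, 1 had a summit (2.08%, interval 0.369% to 10.9%), against 8.98% of the 10153 such genes. Without the copies the counts were 10 of 36 (27.8%, interval 15.8% to 44.0%) and 1 of 27 (3.70%, interval 0.657% to 18.3%). Of the 39 head-to-head members, 36 were thus not copies, and most copies had no such neighbour. Whether this arrangement bears on the lack of summits at copies was not tested. In each arrangement, with or without the copies, the share of all genes lay within the interval of the members. In the optimal list the members' shares were 33.3% and 10.4%, or 36.1% and 18.5% without the copies, against 40.0% and 15.1% of all genes, so without a head-to-head neighbour the members stood below all genes with the copies and above them without. In such a pair, ChIP-seq cannot assign the summit to either gene.

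**Figure D4:**
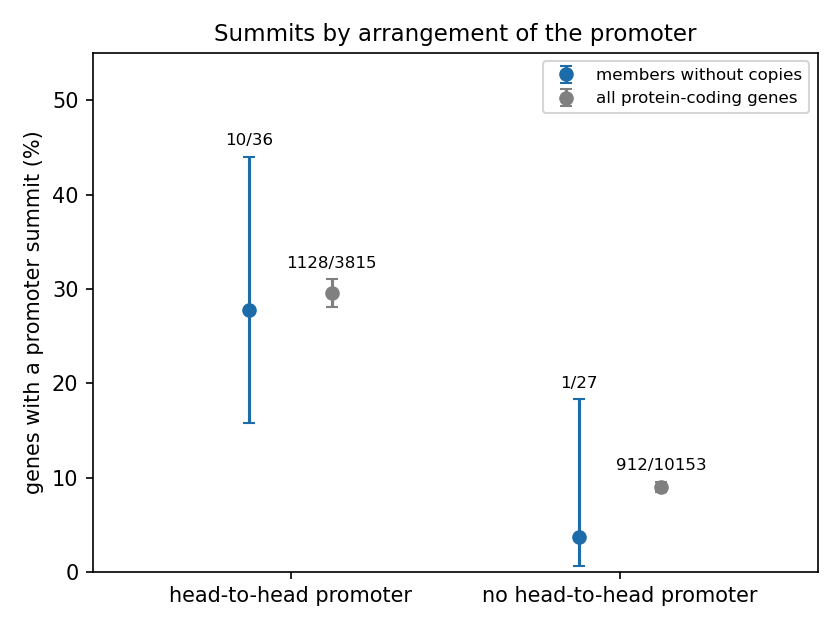
Share of genes with a conservative promoter summit (y axis, percent) for genes with and without a head-to-head neighbour, for the 63 members that are not copies and for all protein-coding genes. Points are shares with 95% Wilson intervals and numbers are genes with a summit over genes, 10 of 36 and 1 of 27 for these members, whose intervals include the shares of all genes, 29.6% and 8.98%.

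A further 7 members had a promoter summit in the optimal list and not in the conservative list, at signals of 49.1 to 84.1. All but COX5B were also in the thresholded list of replicate 1, and ATPsynbeta was in that of replicate 2 too. They brought in the complexes without a conservative summit, with SdhD, a membrane anchor of complex II, at 49.1, and UQCR-C2, a core protein of complex III, at 59.9. SdhD had 37.8 in replicate 1 and 17.1 in replicate 2, and UQCR-C2 had 40.3 and 20.7, each above the IDR threshold in replicate 2. The complex IV genes were COX5B, at 75.3, and COX7C, at 66.8. COX5B had 32.8 in replicate 1 and 39.5 in replicate 2, in neither replicate's thresholded list, and its summit lay 274 bp upstream of COX5B but 24 bp upstream of IFT52. COX7C had 45.7 in replicate 1 and 17.3 in replicate 2, with its summit 321 bp downstream of the COX7C start site and 55 bp upstream of oys. Both summits were nearer to the other gene.

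The complex I genes were ND-MNLL and ND-B22. ND-MNLL, at 84.1, lay just outside the conservative threshold, with a global IDR of 0.0101 between the true replicates, and had 56.5 in replicate 1 and 25.1 in replicate 2. The weakest of those just inside was ND-SGDH, at 0.00851. ND-B22 had 61.1, with 47.5 in replicate 1 and no promoter summit in replicate 2. ATPsynbeta, the catalytic subunit of the ATP synthase head, had 62.4, with its summit 21 bp downstream of the start site. It had 57.2 in replicate 1, at that place, and 42.4 in replicate 2, at a peak 366 bp upstream of a start site that lay in an intron of CG11076. At 6 of these 7 genes replicate 1 was above replicate 2 or replicate 2 had no value, COX5B being the other.

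The remaining 69 members had no promoter summit in any thresholded list. Among the 45 that are not copies, 39 stood in the ranking of the true replicates, with signals from 15.0 to 72.3 and a median of 35.9. Among the 24 copies, 13 did, from 6.15 to 40.1 with a median of 18.3. By complex, the medians of the genes that are not copies were 34.4 for 22 genes of complex I, 44.6 for 3 of complex II, 32.2 for 4 of complex III, 38.8 for 2 of complex IV and 39.0 for 8 of complex V. The highest were ATPsynC, the ring subunit of the ATP synthase, at 72.3 with a global IDR of 0.145, UQCR-14 at 58.4 with 0.0383, COX8 at 52.8 with 0.766 and ATPsynF at 49.1 with 0.0487. ATPsynC had 60.7 in replicate 1 and 17.7 in replicate 2. UQCR-14 had 34.7 and 21.5. For ATPsynC, the global IDR was 0.00105 in the ranking of the pooled reads and 0.00141 in that of replicate 1. Both values were within the threshold, yet ATPsynC was in neither the optimal list nor that of replicate 1. The reason was not tested. No ranked list held a promoter summit for ND-AGGG, ND-MLRQ, UQCR-14L and COX6AL2.

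Beyond the promoter window, 2 members (2.30%) without a promoter summit had a conservative summit between 500 and 1000 bp from a start site, against 2.51% of all genes. A signal of 170 stood 857 bp upstream of SdhA, the flavoprotein of complex II, and a signal of 76.2 stood 936 bp downstream of the start of UQCR-6.4L. Within gene bodies but outside promoters, 2 members had a conservative summit. For this count no share over all genes was computed. A peak at 2L:117815-118144 with a signal of 106 lay in an intron of ND-15 that overlaps coding sequence of CG4822. A peak at 3L:20493471-20493800 with a signal of 149 lay in an intron shared by ND-39 and ZnT77C.

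Around the 11 summits, windows reaching 50 bp either way were A/T-rich, near the level of all conservative promoter summits. Their mean GC content was 31.0% ± 10.5 (SD, n = 11), from 15.8% at ND-42 to 57.4% at COX6B, against 34.3% ± 10.3 (SD, n = 1569) at all conservative promoter summits. Promoters of the 87 members had a mean GC content of 35.6%, against 39.3% for all genes. The mean was 36.4% for the 11 members with a summit and 35.4% for the 52 that are neither copies nor had one. TTAAAA stood in 8 of the 11 windows (72.7%) and in 37.9% of the 1569. Over promoters from 250 bp upstream to 50 bp downstream of the start site, it stood in 71.3% of the 87 members and 52.6% of all genes. It was also in 71.2% of the 52 members that are neither copies nor had a summit, so in promoters it did not separate members with a summit, 8 of 11 (72.7%). TATAAA stood in 4 of the 11 windows (36.4%) against 21.5%, at ND-ASHI, ND-MWFE, ND-SGDH and ND-42.

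A small set of 4 words known for nuclear respiratory genes of Drosophila (TTATATAA, TTATGTAA, TTACATAA and TTACGTAA) was also searched. One of the set stood in 2 of the 11 windows, those of ND-SGDH and ND-42 shown with the sequences, and in 2.61% of the 1569. In promoters the set stood in 5 of the 87 members (5.75%), ND-SGDH, ND-42, ND-MNLL, ND-49 and ND-30, against 5.13% of all genes. GGTATTT, close to a core promoter word common at housekeeping genes of Drosophila, stood in 28.6% of the 63 promoters of genes that are not copies, in 1 of the 24 of copies and in 9.51% of all promoters. Of the 11 summit windows, 1 held it (9.09%), that of ATPsynCF6, against 2.68% of the 1569.

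The word TATCGATA, read by the DREF factor, stood in 8 members' promoters (9.20%) against 8.94% of all genes. None of the 11 summit windows held it, against 3.25% of the windows at all 1569 conservative promoter summits. CCGGAAG, a word of ETS factors, was in none of the 87 promoters and in 1.08% of all. GCGCANGCG or GCGCATG, cores of the mammalian nuclear respiratory factor site, stood in 3.45% of members against 3.53%, and CACGTG in 4.60% against 4.25%. TAATTA was in 23.0% against 20.0%, and GAGAGAG in 1.15% against 6.19%. These are counts of letters in windows, and no word was tested.

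Other genes of respiration were scored by the same rule, from lists of the carriers, assembly factors, citric acid cycle enzymes, regulators and alternative electron donors. Of 41 listed symbols, 40 matched the annotation, and 11 of the 40 had a conservative promoter summit, where 14.6% of all genes did. In the citric acid cycle there were 5 of 14 (35.7%), namely Fum1 at 474, Idh3g, a subunit of isocitrate dehydrogenase, at 424, mAcon1, mitochondrial aconitase, at 145, Pdhb, of pyruvate dehydrogenase, at 129, and kdn, citrate synthase, at 83.0. The summit of Fum1 is the one counted for ND-ASHI. The gene kdn is head-to-head with ND-B16.6, 228 bp apart, but its summit, 65 bp downstream of another kdn start site, was not within 500 bp of ND-B16.6. In the optimal list kdn had no promoter summit.

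Among assembly factors 3 of 9 had a summit (33.3%). Such small lists were not tested against all genes. CIA30, an assembly factor of complex I, had a signal of 1787 in the conservative list, with 900 in replicate 1 and 916 in replicate 2, above every subunit gene, at a summit shared with CG7601. Cchl had the 97.1 of the peak counted for ND-42, and Cox17, a copper chaperone for complex IV, had 95.1. Of 7 electron carriers and exchangers, Cyt-c-d, the cytochrome c of the male germline, had a summit at 422, 371 bp downstream of a start site and shared with CG31808. Of 5 regulators, ERR, a nuclear receptor of energy metabolism, had 197, while ewg, Ets97D, srl and TFAM had no summit in a thresholded list. Of 5 alternative electron donors, Dhod, the pyrimidine enzyme that feeds ubiquinone, had 101.

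The symbol rule leaves out some subunits with other names, which were looked up after the values were seen. Of 7, blw, which encodes the alpha subunit of the ATP synthase, had a conservative signal of 272, with 119 in replicate 1 and 152 in replicate 2. The gene levy, which encodes subunit 6A of complex IV, had 264, with 127 and 138. The genes sun, RFeSP, Cyt-c1, cype and Cyt-c1L had none in the conservative list. Both signals were above all members but ND-ASHI.

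Genes of 3 other protein machines were scored for comparison. Of 73 mitochondrial ribosomal protein genes, 19 had a conservative promoter summit (26.0%, interval 17.3% to 37.1%). Of 89 cytoplasmic ribosomal protein genes, 54 did (60.7%, interval 50.3% to 70.2%), and of 33 vacuolar ATPase subunit genes, 5 did (15.2%, interval 6.65% to 30.9%). The interval of the respiratory subunits overlapped those of the mitochondrial ribosome and the vacuolar ATPase and not that of the cytoplasmic ribosome. These differences were not tested, since the genes of a list are not independent replicates.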

How the data were processed

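The data were ChIP-seq peak lists on genome build dm6 of 2 replicates, per the notes deposited with each sample. Chromatin was sheared by sonication to 200 to 800 bp, per the labels. For the aligner and the peak caller, names were not given in the sources used here. A possible control experiment is named in the labels and was not used. Each peak carries a signal value that the authors set and deposited. The ranked lists also carry the −log10 of the global IDR, as the authors deposited it, converted back to an IDR here. The series rankings hold 8 further columns with positions and values of the lists behind them, which were not used, since replicate values came from each replicate's own lists. No file gives read counts, so depth is unknown.

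Start sites of protein-coding genes on the 7 chromosome arms came from Ensembl release 115, and bases from release 6 of the RefSeq genome. No peak ended beyond an arm. Where several summits lay within 500 bp of a gene, the highest signal was taken. Wilson intervals cover counting error over genes only. With 1 group, no test was made, and most counts were set beside the share of all protein-coding genes. The counts of summits within gene bodies and of shared summits at the stricter IDR were not. Whether the replicates came from separate collections is not stated beyond their label as biological replicates.

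The members, lists and words were chosen with earlier results of these data known. Members with a conservative summit, or with one in the optimal or a replicate list only, were named. Of those with none, the 4 with the highest ranked signal were named, and of each other list up to 4 with a summit, with kdn added after its value was seen. Summit assignment was tested on simulated data. Alternatives were the optimal list, each replicate's list, a global IDR of 0.001 or less, windows of 200 and 1000 bp, the nearest gene only, peak overlap in place of the summit, exact symbols for complex II and other word windows. Computation used Python 3.11.15 with scipy 1.17.1, pandas 2.3.3, numpy 2.4.6 and matplotlib 3.10.9.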

Additional observations from a re-analysis of the deposited data

How the results depend on the processing

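Of 92 alternative values, 64 stayed near the value given and 28 moved. Some of the 64 were fixed in advance. Exact symbols for complex II could not change the counts of the other complexes, and stricter settings could not change a count of 0. Near means within 1.5 times for a count, and for a median within 1 SD of the medians of the single replicates' lists. The count of 11 members became 18 in the optimal list, 6 at a global IDR of 0.001 or less and 6 with the nearest gene only, and ran from 11 to 15 over the replicates' own lists. The share of all genes moved alike, to 21.9%, 9.49%, 10.7% and, over the replicates, 13.2% to 18.6%. Windows of 200 and 1000 bp gave 10 and 13 members (11.5% and 14.9%, against 10.6% and 17.1% of all genes). For complex I the 7 became 4 at the stricter IDR and 4 with the nearest gene only. Complexes II and III each went from 0 to 1 in the optimal list, to 1 within 1000 bp and to between 0 and 1 over the replicate lists. For complex IV the 2 became 4 in the optimal list, 1 at the stricter IDR and 0 with the nearest gene only, and for complex V the 2 became 1 at the stricter IDR. The median signal of 117 became 96.8 in the optimal list, 158 at the stricter IDR, 112 within 200 bp and 57.2 to 61.7 in the lists of single replicates, whose values are on their own scale. The median position of −97.0 bp became −74.0 bp with the nearest gene only and between −102 and −70.0 bp in the single replicates. Of the 11 members, 10 shared their summit, against 58.2% of all genes with a conservative promoter summit. All 6 members that remained at the stricter IDR did so, and no share over all genes was computed at that setting. The 11 other genes of respiration became 7 at the stricter IDR and 7 with the nearest gene only. From promoters to the shorter summit windows of the 11 genes, TATAAA went from 7 to 4, GGTATTT from 4 to 1 and TAATTA from 3 to 0. In promoters of all genes with a conservative summit, these words stood in 44.9%, 11.4% and 23.0%. In windows at all 1569 conservative promoter summits, they stood in 21.5%, 2.68% and 10.1%. Fewer peaks, fewer genes per peak or shorter windows are part of how these alternatives are built, and no other cause was tested. No paired analysis was possible because there is 1 group.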
